A study of Rattus norvegicus with 9 samples.

Results

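Collagen chain genes of the rat were followed across 9 arrays of cultured cells. The rule took every feature (the array's unit of a transcript) whose platform annotation gives exactly 1 gene symbol made of Col, a number, a and a number, and let the feature with the highest mean stand for a gene with several. It found 25 genes, measured by 27 features, among 14506 named genes and 29214 features in all. Each of the 25 symbols matched a rat gene in RefSeq. A list of 45 chains drawn up by collagen class holds 10 measured fibril-forming chains of 11, 3 basement membrane chains of 6, 5 FACIT chains of 10, 2 network chains of 3, 3 transmembrane chains of 4, the 1 anchoring fibril chain and 1 beaded filament chain of 6, with none of 2 multiplexins and of 2 further chains. FACIT stands for fibril-associated collagens with interrupted triple helices. The other 20 listed chains, Col4a2, Col18a1 and the usual collagen VI chains among them, were not analysed here.

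The arrays (Affymetrix Rat Gene 1.0 ST) hold RNA of primary cells from adult Sprague Dawley rats in 3 groups of 3 samples, which the series calls independent. SKP-derived Schwann cells were made by plating skin-derived precursors (SKPs) of dorsal trunk skin in Schwann cell medium. Nerve Schwann cells were grown from enzyme-digested sciatic nerve in the same medium. SKPs were kept as floating spheres, whereas both kinds of Schwann cell were passaged and grown to confluence, so cell type and culture form cannot be told apart. Per the labels, the SKP values come from a new analysis of earlier samples, so group and batch cannot be told apart for SKPs, and the tissue field reads dermis for all 9 arrays, nerve included. All values are log2 expression values made by the authors with RMA, in which 1 unit is a 2-fold difference; levels of different genes were not compared with each other.

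Collagens are made of 3 chains wound into a triple helix. The fibril-forming types build the cross-striated fibrils of skin and nerve sheath, type IV builds the sheet of basement membranes, and the FACIT types sit on the surface of fibrils. Schwann cells surround themselves with a basement membrane, need collagen and laminin contact to ensheathe axons, and are known to secrete type IV and type V collagen, while fibroblasts make most of the fibrillar collagen of dermis and nerve.

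Promoter windows were available from RefSeq (GRCr8) for 20 of the 25 chains. Col12a1, Col14a1, Col1a1, Col2a1 and Col3a1 had no entry among them. Each window ran from 250 bases before to 50 bases after a start position of the gene. For some chains that position lay inside the span RefSeq gives the gene. The Col8a1 window begins at 56246532, past the gene's first base at 56245998. The sequences below are those of Col1a2, a chain of the main fibrillar collagen, and Col8a1, the chain with the largest difference between cell groups, followed by the stretches shared by the divergent type IV pairs. Capitals mark the CCAAT box, the TATA box (searched as TATAAA) and the GC box (searched as GGGCGG), each on either strand.
Col1a2 promoter, chr4:33518307-33518606, plus strand: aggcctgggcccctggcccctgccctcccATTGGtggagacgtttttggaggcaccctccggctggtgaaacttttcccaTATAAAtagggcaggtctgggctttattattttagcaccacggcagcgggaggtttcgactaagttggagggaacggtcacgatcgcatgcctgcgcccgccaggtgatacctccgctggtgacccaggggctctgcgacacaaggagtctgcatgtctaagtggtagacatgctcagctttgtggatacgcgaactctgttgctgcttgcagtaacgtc
Col8a1 promoter, chr11:56246532-56246831, plus strand: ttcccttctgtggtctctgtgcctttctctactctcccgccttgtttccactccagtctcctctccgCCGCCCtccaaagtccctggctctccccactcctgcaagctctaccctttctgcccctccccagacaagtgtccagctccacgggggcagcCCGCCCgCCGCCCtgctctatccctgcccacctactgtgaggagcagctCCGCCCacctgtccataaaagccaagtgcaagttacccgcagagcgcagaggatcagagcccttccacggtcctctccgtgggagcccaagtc
Stretch shared by the Col4a1 and Col4a2 windows, chr16:84885471-84885646, plus strand: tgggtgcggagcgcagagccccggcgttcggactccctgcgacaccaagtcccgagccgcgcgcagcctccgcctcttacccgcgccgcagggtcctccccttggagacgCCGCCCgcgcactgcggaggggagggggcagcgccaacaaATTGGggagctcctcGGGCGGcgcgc
Stretch shared by the Col4a3 and Col4a4 windows, chr9:91323740-91323827, plus strand: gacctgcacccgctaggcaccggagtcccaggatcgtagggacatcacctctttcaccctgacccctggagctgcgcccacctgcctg
The starts of Col4a1 and Col4a2 lie 77 bases apart and point away from each other, and those of Col4a3 and Col4a4 lie 413 bases apart; the shared stretch of the second pair holds none of the 3 letter strings. Col4a2 was not measured here, so the members of that pair could not be compared. Col3a1 and Col5a2, both lower in the 2 Schwann cell groups, are neighbours on chromosome 9 with 38189 bases between them.

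The letters CCAAT were found in 7 of the 20 collagen windows, against 37.5% of the 33469 RefSeq windows of this length. The TATA box letters TATAAA were in 4 of the 20, against 14.2%, and the GC box letters GGGCGG were in 11 of the 20, against 33.1%. The core of the Sox family site, AACAAT, was in 2 of the 20 (Col4a3 and Col6a4), against 11.7%. The Smad box CAGACA, a site of TGF-beta signalling, was in 3 of the 20 (Col5a2, Col8a1 and Col9a2), against 21.1%. Each letter string was searched on both strands, no string contains another, and a match is only a description of the window.

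The labelled cell types were checked against marker lists, which were written with earlier results of these data known. All 7 measured Schwann cell markers of 9 listed (Sox10, S100b, Ngfr, Erbb3, Cdh19, Gfap and Pmp2) were higher than in SKPs in both Schwann cell groups; SKP-derived Schwann cells had a mean level of 10.18 to 11.08 over the 7, nerve Schwann cells 11.23 to 11.32, and SKPs 5.28 to 5.51. Of 9 fibroblast and dermal mesenchyme markers, 5 were lower in SKP-derived and 6 in nerve Schwann cells than in SKPs. Over all genes, 22.3% and 14.9% were lower in these comparisons. The mean of the 9 fibroblast markers was 6.92, 9.93 and 8.44 in SKP-derived arrays 1, 2 and 3. It was 7.97, 8.99 and 7.46 in nerve arrays 1, 2 and 3, and 11.54, 11.36 and 9.56 in SKP arrays 1, 2 and 3. In RNA of whole cultures, fewer cells of a type and less RNA per cell cannot be told apart. SKP array 3 stood apart from the other arrays of its group. SKP-derived array 2 had the highest fibroblast and the lowest Schwann cell marker mean of its group. SKP-derived array 1 lay at the opposite end on both lists, so the markers do not set array 2 apart more than array 1. Differences that gained or lost a call against SKPs without SKP array 3 or SKP-derived array 2 are given with those values. The median array value was 6.33 to 6.44 for SKP-derived Schwann cells, 6.82 to 6.87 for nerve Schwann cells and 6.20 to 6.27 for SKPs. A nerve array therefore sat higher across most genes, and each call was repeated after centring arrays on their medians, after cyclic loess (a smooth adjustment of each array to the others) and after quantile normalisation.

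SKP-derived Schwann cells had less of 11 collagen chain transcripts than SKPs and more of 2, at an adjusted p under 0.05 (limma), and 12 chains did not pass. Over all genes, 22.3% were lower and 19.3% higher in that comparison. The lower chains were Col1a1, Col1a2, Col3a1, Col5a2, Col4a1, Col7a1, Col8a1, Col16a1, Col9a2, Col13a1 and Col23a1, and the higher ones Col14a1 and Col6a4. All of these passed under all 4 scalings, a rule that 21.4% of genes met downward and 14.3% upward. Apart from Col9a2, each of these calls held in all 9 fits that left out 1 array. The Col6a4 call did not hold when the features of the gene were averaged, as given below. The median difference of the 25 chains was -0.52, against -0.01 over all genes.

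Nerve Schwann cells had less of 8 chains than SKPs and more of 8, and 9 did not pass, where 14.9% of all genes were lower and 49.7% higher. The 8 lower chains (Col1a2, Col3a1, Col5a2, Col4a1, Col7a1, Col8a1, Col12a1 and Col23a1) kept their call under all 4 scalings, as did 14.9% of all genes downward. Of the 8 higher ones, Col14a1 and Col27a1 kept it, where 15.3% of all genes did so upward, and the other 6 did not (Col4a4, Col5a3, Col6a4, Col9a1, Col10a1 and Col17a1). With 1 array left out, calls were lost for Col3a1, Col12a1, Col5a3 and Col17a1, as given below for each, and the other 12 held in all 9 fits. The median difference of the 25 chains was 0.19, against 0.46 over all genes. Both sets of differences use the same 3 SKP arrays, so a high or low SKP array moves them together.

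**Figure D1:**
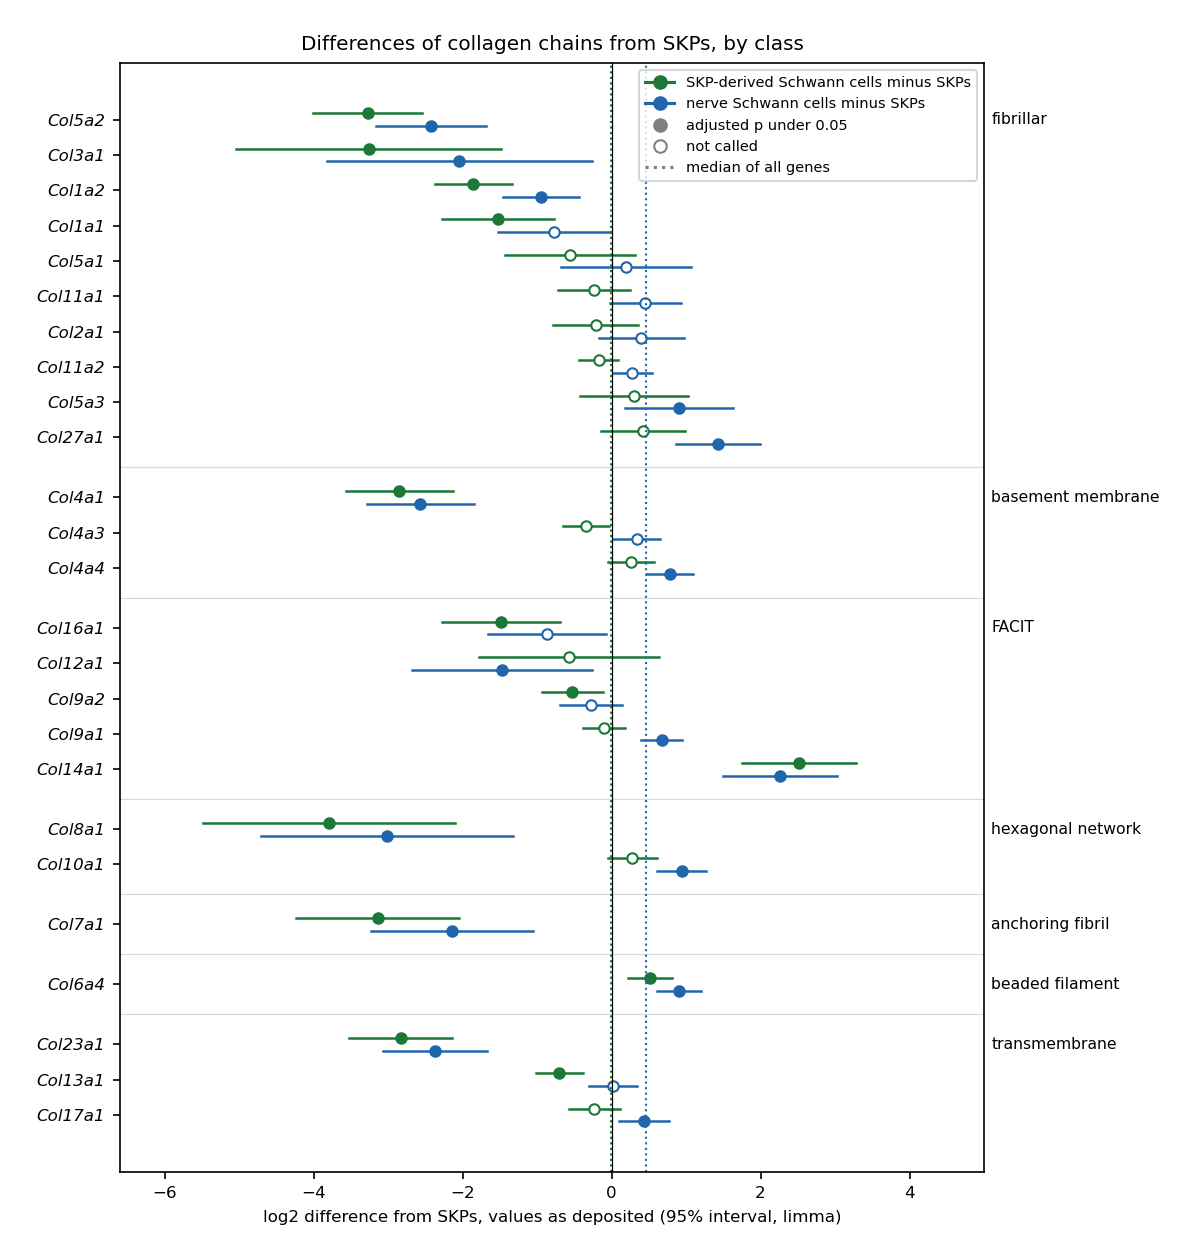
Differences of the 25 collagen chains from SKPs on the log2 scale, by collagen class, for SKP-derived (green, upper) and nerve (blue, lower) Schwann cells, with 95% intervals from limma; filled points passed an adjusted p of 0.05, and dotted lines mark the median of all genes. Col5a2, Col3a1, Col4a1, Col8a1, Col7a1 and Col23a1 lie far to the left in both, and Col14a1 alone lies more than 2 to the right.

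In nerve Schwann cells, 3 of 10 fibril-forming chains were lower and 2 higher, against 14.9% and 49.7% of all genes. In SKP-derived Schwann cells 4 of 10 were lower and none higher, against 22.3% and 19.3% of all genes. The 4 were the chains of the abundant dermal fibril: Col1a1 and Col1a2, which together form type I collagen, Col3a1, which forms type III collagen of skin and vessels, and Col5a2, a chain of the type V collagen that nucleates type I fibrils. Col1a2 read 11.35, 10.82 and 10.98 in SKP-derived Schwann cells and 11.92, 11.92 and 12.04 in nerve Schwann cells, against 13.18, 13.16 and 12.38 in SKPs. The 3 groups did not overlap: every SKP-derived array lay lowest and every SKP array highest. Relative to SKPs, Col1a2 was 3.62-fold lower in SKP-derived Schwann cells (log2 difference -1.86, SE 0.23, adjusted p = 0.000222) and 1.93-fold lower in nerve Schwann cells (-0.95, SE 0.23, adjusted p = 0.00522).

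Col1a1 read 11.94, 11.01 and 11.34 in SKP-derived Schwann cells and 12.10, 12.12 and 12.34 in nerve Schwann cells, against 13.30, 13.40 and 12.16 in SKPs. SKP array 3 lay within the range of the nerve arrays. Col1a1 was 2.88-fold lower in SKP-derived Schwann cells (-1.53, SE 0.34, adjusted p = 0.00559). In nerve Schwann cells the difference was -0.77 (SE 0.34, adjusted p = 0.0692), and -1.17 without SKP array 3 (adjusted p = 0.00315).

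Col5a2 had the clearest difference of the fibrillar chains. It read 8.83, 7.75 and 8.45 in SKP-derived Schwann cells and 9.01, 9.02 and 9.56 in nerve Schwann cells, against 12.07, 11.74 and 11.05 in SKPs, so that every Schwann cell array lay below every SKP array by more than 1. It was 9.69-fold lower in SKP-derived Schwann cells (-3.28, SE 0.33, adjusted p = 6.8e-05) and 5.36-fold lower in nerve Schwann cells (-2.42, SE 0.33, adjusted p = 0.00024).

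Col3a1 read 8.21, 8.70 and 8.55 in SKP-derived Schwann cells and 9.63, 9.82 and 9.65 in nerve Schwann cells, against 13.01, 12.86 and 9.36 in SKPs. SKP array 3 fell below all 3 nerve arrays while the other two SKP arrays were far above them. Col3a1 was 9.58-fold lower in SKP-derived Schwann cells (-3.26, SE 0.79, adjusted p = 0.00919). The nerve difference of -2.04 (SE 0.79, adjusted p = 0.0451) passed in 1 of 9 fits that each left out 1 array, the one without SKP array 3, where it was -3.24 (adjusted p = 5.08e-06).

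The remaining type V chains differed from Col5a2. Col5a1, which pairs with Col5a2 in the common type V molecule, read 8.76, 8.03 and 8.74 in SKP-derived Schwann cells and 9.21, 9.13 and 9.44 in nerve Schwann cells, against 9.64, 9.53 and 8.05 in SKPs. Its groups overlapped, with differences from SKPs of -0.56 (adjusted p = 0.273) and 0.19 (adjusted p = 0.687); without SKP array 3 the first was -1.07 (adjusted p = 0.00563). Col5a3, the type V chain that cultured rat Schwann cells are known to secrete, read 8.87, 7.71 and 8.49 in SKP-derived Schwann cells and 8.82, 8.92 and 9.17 in nerve Schwann cells, against 8.36, 8.36 and 7.45 in SKPs. All nerve arrays lay above all SKP arrays for Col5a3, by 0.91 on average (SE 0.32, adjusted p = 0.0315), but the difference was 0.63 after cyclic loess (adjusted p = 0.129) and 0.61 without SKP array 3 (adjusted p = 0.0975, or 0.0107 without SKP-derived array 2 as well). The call held in 5 of 9 fits with 1 array left out.

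Col27a1, a fibril-forming chain best known from cartilage, was higher in nerve Schwann cells. It read 8.42, 7.71 and 8.29 in SKP-derived Schwann cells and 8.996, 8.97 and 9.49 in nerve Schwann cells, against 7.84, 8.02 and 7.30 in SKPs. The nerve arrays stood above all others. Nerve Schwann cells exceeded SKPs 2.7-fold (1.43, SE 0.25, adjusted p = 0.000953), and by 1.15 after cyclic loess (adjusted p = 0.0041), whereas SKP-derived Schwann cells differed from SKPs by 0.42 (adjusted p = 0.211).

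The cartilage fibril chains Col2a1, Col11a1 and Col11a2 passed in neither comparison with SKPs; their differences ran between -0.23 and -0.17 for SKP-derived Schwann cells and between 0.28 and 0.46 for nerve Schwann cells. Of 5 measured cartilage cell markers, 3 were higher in SKP-derived and 5 in nerve Schwann cells than in SKPs as deposited. Over all genes, 19.3% and 49.7% were higher. Under all 4 scalings the higher markers were Comp and Cnmd for SKP-derived and Acan and Comp for nerve Schwann cells. The mean level of the 5 was 6.27 to 6.38 in SKP-derived and 6.85 to 7.03 in nerve Schwann cells, against 5.62 to 5.76 in SKPs. Its part in the collagen values was not tested.

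**Figure D2:**
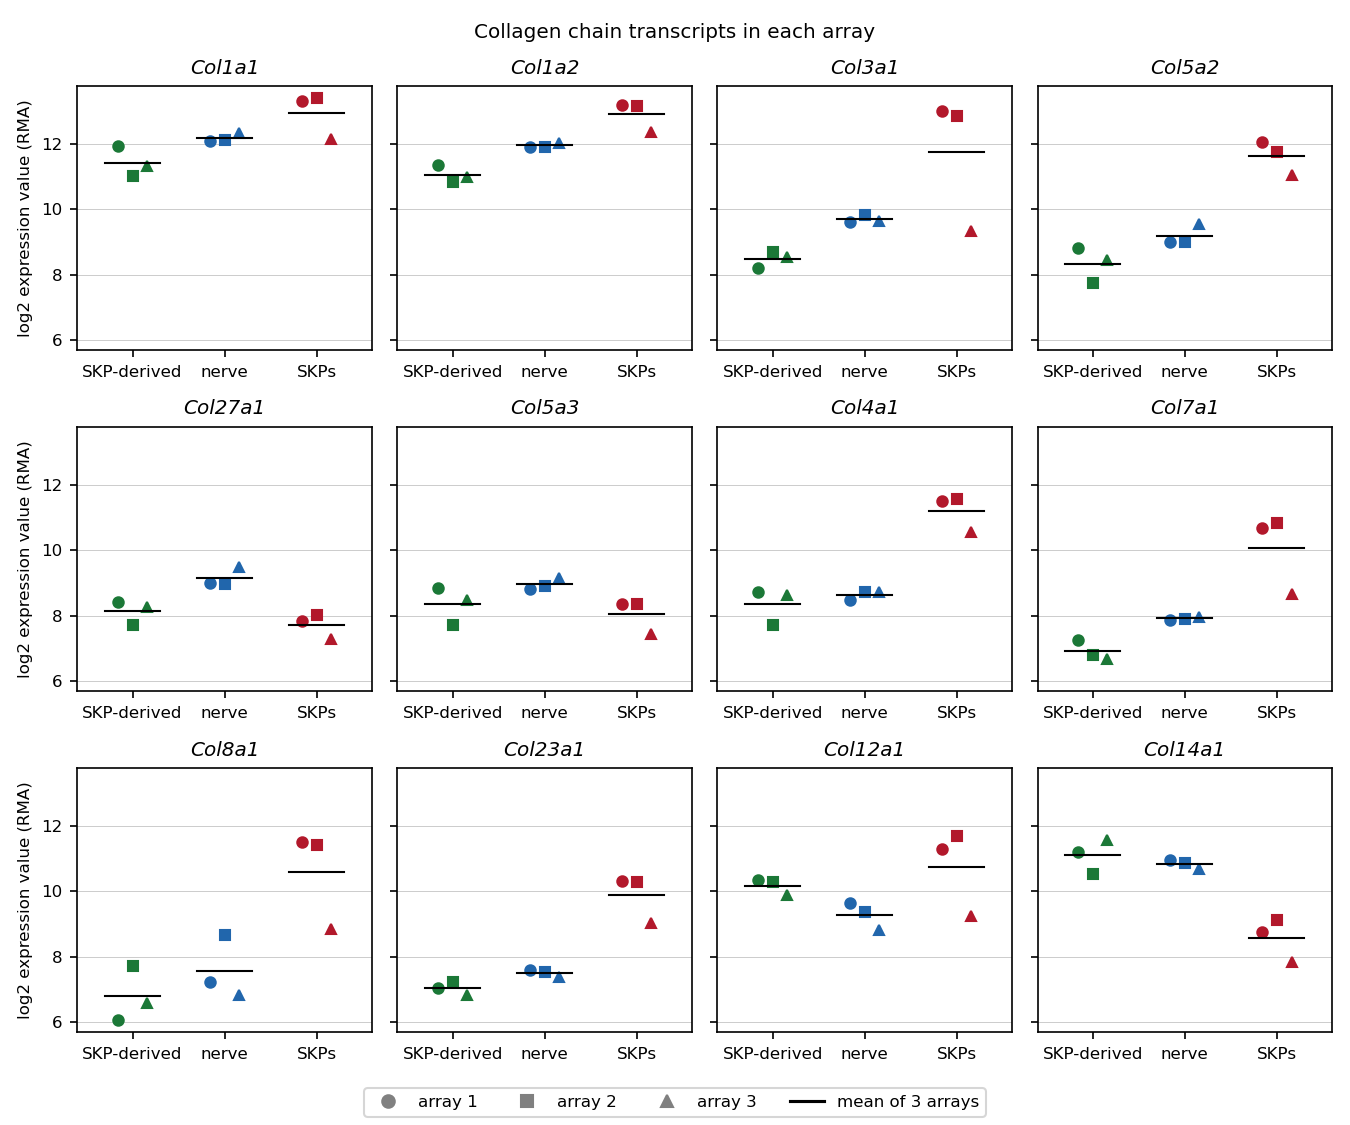
Log2 expression values of 12 collagen chains in each array of SKP-derived Schwann cells (green), nerve Schwann cells (blue) and SKPs (red); symbols give the array number and bars the mean of 3 arrays. Col1a2, Col5a2, Col4a1, Col7a1, Col8a1 and Col23a1 are lower in every Schwann cell array than in every SKP array, and Col14a1 is higher; SKP array 3 (triangle) is the lowest SKP array in all 12 panels.

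Of the basement membrane chains, Col4a1, which with Col4a2 makes the type IV network of nearly all basement membranes, was lower in both kinds of Schwann cell. It read 8.73, 7.71 and 8.65 in SKP-derived Schwann cells and 8.50, 8.72 and 8.73 in nerve Schwann cells, against 11.50, 11.57 and 10.58 in SKPs. The Schwann cell arrays overlapped each other and all lay below the SKP arrays. Relative to SKPs, Col4a1 was 7.21-fold lower in SKP-derived (-2.85, SE 0.32, adjusted p = 0.000131) and 5.93-fold lower in nerve Schwann cells (-2.57, SE 0.32, adjusted p = 0.000164).

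Col4a3 and Col4a4, the divergent pair whose shared stretch is printed above and whose chains form a specialised network in kidney and lung, were not called lower in both kinds of Schwann cell. Col4a3 read 6.23, 6.36 and 6.32 in SKP-derived and 6.95, 7.06 and 6.94 in nerve Schwann cells, against 6.77, 6.78 and 6.39 in SKPs, and as deposited passed against SKPs in neither group (-0.34, adjusted p = 0.0764; 0.34, adjusted p = 0.0576). After median centring, cyclic loess and quantile normalisation it was lower in SKP-derived Schwann cells (-0.48, -0.41 and -0.44, adjusted p = 0.0173, 0.031 and 0.0179), as it was without SKP array 3 (-0.47, adjusted p = 0.0172). Its nerve difference turned to -0.26, -0.22 and -0.21 in those 3 scalings and did not pass. Col4a4 read 6.35, 6.11 and 5.99 in SKP-derived and 6.58, 6.72 and 6.70 in nerve Schwann cells, against 6.02, 5.87 and 5.76 in SKPs. Its nerve difference of 0.78 (adjusted p = 0.00101) was 0.13 after cyclic loess (adjusted p = 0.407).

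The FACIT chains did not move together. Col14a1, which coats collagen fibrils in skin, tendon and nerve, was the one chain higher in both kinds of Schwann cell under all 4 scalings. It read 11.20, 10.54 and 11.56 in SKP-derived Schwann cells and 10.96, 10.87 and 10.69 in nerve Schwann cells, against 8.77, 9.14 and 7.85 in SKPs. No Schwann cell array came within 1 of an SKP array. Col14a1 was 5.73-fold higher in SKP-derived (2.52, SE 0.34, adjusted p = 0.000363) and 4.79-fold higher in nerve Schwann cells (2.26, SE 0.34, adjusted p = 0.000411), and the 2 kinds differed by 0.26 (95% interval -0.50 to 1.02), or by 0.54 without both SKP array 3 and SKP-derived array 2 (adjusted p = 0.0342).

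Col12a1, the FACIT of dense connective tissue, took another order. It read 10.34, 10.30 and 9.89 in SKP-derived Schwann cells and 9.63, 9.38 and 8.82 in nerve Schwann cells, against 11.31, 11.69 and 9.24 in SKPs. The SKP-derived arrays lay above all nerve arrays and below the first 2 SKP arrays, while SKP array 3 lay within the nerve range. The SKP-derived difference was -0.57 (adjusted p = 0.424), and -1.32 without SKP array 3 (adjusted p = 0.00356). In nerve Schwann cells it was -1.47 (adjusted p = 0.0365), a call that held in 3 of 9 fits with 1 array left out, and -2.22 without SKP array 3 (adjusted p = 0.000181).

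Col16a1, a FACIT of dermis and other connective tissue, read 8.18, 7.18 and 7.89 in SKP-derived Schwann cells and 8.25, 8.36 and 8.49 in nerve Schwann cells, against 9.55, 9.74 and 8.42 in SKPs. All SKP-derived arrays lay below the SKP arrays, and SKP array 3 lay within the nerve range. It was 2.8-fold lower in SKP-derived Schwann cells (-1.49, SE 0.35, adjusted p = 0.00809). In nerve Schwann cells the difference was -0.87 (adjusted p = 0.0526), -1.15 after cyclic loess (adjusted p = 0.0248) and -1.28 without SKP array 3 (adjusted p = 0.00288); without SKP-derived array 2, which changes only the estimate of spread, its adjusted p was 0.0365.

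The type IX chains, which decorate cartilage fibrils, showed small differences. Col9a2 read 7.20, 6.76 and 7.27 in SKP-derived and 7.34, 7.33 and 7.31 in nerve Schwann cells, against 7.90, 7.34 and 7.56 in SKPs. Its SKP-derived difference of -0.52 (adjusted p = 0.0443) held in 2 of 9 fits with 1 array left out; without SKP array 3 it was -0.54 (adjusted p = 0.0666). Its nerve difference of -0.28 (adjusted p = 0.207) was -0.67 after cyclic loess (adjusted p = 0.0097). Col9a1 read 5.93, 5.98 and 5.71 in SKP-derived and 6.66, 6.64 and 6.64 in nerve Schwann cells, against 5.94, 5.92 and 6.07 in SKPs. Its nerve difference of 0.67 (adjusted p = 0.00123) was 0.01 after cyclic loess.

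The network and anchoring chains gave some of the largest differences. Col8a1, a chain of the short-chain network around vessels and in the eye, read 6.06, 7.74 and 6.59 in SKP-derived Schwann cells and 7.23, 8.66 and 6.83 in nerve Schwann cells, against 11.50, 11.41 and 8.85 in SKPs. Every Schwann cell array lay below every SKP array, though nerve array 2 came within 0.5 of SKP array 3. It was 13.9-fold lower in SKP-derived (-3.79, SE 0.75, adjusted p = 0.00321) and 8.09-fold lower in nerve Schwann cells (-3.02, SE 0.75, adjusted p = 0.00621).

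Col7a1, whose homotrimer forms the anchoring fibrils that tie the epidermal basement membrane to dermis, read 7.26, 6.80 and 6.69 in SKP-derived Schwann cells and 7.88, 7.91 and 7.98 in nerve Schwann cells, against 10.70, 10.83 and 8.66 in SKPs. The 3 groups did not overlap. It was 8.83-fold lower in SKP-derived (-3.14, SE 0.49, adjusted p = 0.00079) and 4.41-fold lower in nerve Schwann cells (-2.14, SE 0.49, adjusted p = 0.00376). Of 5 measured keratinocyte markers, 0 were called in SKP-derived and 4 were higher in nerve Schwann cells as deposited. In nerve Schwann cells 49.7% of all genes were higher. None of the 5 passed under all 4 scalings.

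Col10a1, the network collagen of hypertrophic cartilage, read 6.27, 6.04 and 5.75 in SKP-derived and 6.68, 6.67 and 6.71 in nerve Schwann cells, against 5.78, 5.72 and 5.73 in SKPs. Its nerve difference of 0.94 (adjusted p = 0.000503) was 0.27 after cyclic loess (adjusted p = 0.101).

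Among the transmembrane collagens, which span the cell membrane with the helix outside, Col23a1 was lower in both kinds of Schwann cell. It read 7.07, 7.22 and 6.84 in SKP-derived Schwann cells and 7.61, 7.54 and 7.38 in nerve Schwann cells, against 10.33, 10.28 and 9.02 in SKPs, and the groups did not overlap. It was 7.13-fold lower in SKP-derived (-2.83, SE 0.31, adjusted p = 0.000115) and 5.15-fold lower in nerve Schwann cells (-2.37, SE 0.31, adjusted p = 0.00021).

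Col13a1, a transmembrane chain with a role at the neuromuscular junction, read 6.03, 6.02 and 6.06 in SKP-derived and 6.73, 6.80 and 6.73 in nerve Schwann cells, against 6.93, 6.82 and 6.47 in SKPs. It was lower in SKP-derived Schwann cells (-0.70, SE 0.14, adjusted p = 0.00348). The nerve difference was 0.02 as deposited (adjusted p = 0.915) and -0.57 after cyclic loess (adjusted p = 0.007), so its direction turned with the scaling. Col17a1, the hemidesmosome collagen of skin, read 6.45, 6.16 and 6.33 in SKP-derived and 7.0004, 6.97 and 6.97 in nerve Schwann cells, against 6.77, 6.58 and 6.29 in SKPs. Its nerve difference of 0.44 (adjusted p = 0.0282) also turned, to -0.13 after cyclic loess (adjusted p = 0.491), and was 0.31 without SKP array 3 (adjusted p = 0.0837); as deposited it held in 4 of 9 fits with 1 array left out.

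Col6a4, a chain of beaded filament collagen VI, was the second chain higher in SKP-derived Schwann cells. Its brightest feature read 6.74, 6.74 and 6.50 in SKP-derived and 7.12, 7.03 and 6.98 in nerve Schwann cells, against 6.07, 6.29 and 6.05 in SKPs, a difference of 0.52 (adjusted p = 0.0111) and 0.91 (adjusted p = 0.000352). Its 3 features disagreed for SKP-derived Schwann cells. The dimmest read 4.64, 4.71 and 4.72 in SKP-derived and 5.63, 5.47 and 5.70 in nerve Schwann cells, against 4.59, 4.59 and 4.57 in SKPs, the same order of groups as the brightest one. The middle one read 5.41, 5.49 and 5.20 in SKP-derived and 6.17, 6.13 and 6.13 in nerve Schwann cells, against 6.07, 5.98 and 5.33 in SKPs, the opposite order for SKP-derived Schwann cells. Averaged over the 3 features, the SKP-derived difference was 0.07 (adjusted p = 0.701).

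SKP-derived and nerve Schwann cells were set against each other to ask how the collagen profile of Schwann cells made from skin compares with that of nerve. As deposited, 11 chains were lower in SKP-derived Schwann cells, 0 were higher and 14 did not pass (limma), where 42.3% of all genes were lower and 1.33% higher. At an unadjusted p under 0.05 the count of higher chains was 0 as well. At an adjusted p it was 1 in the fit without SKP array 3 and in the fit of these 6 arrays alone. It was 2 (Col12a1 and Col14a1) without both SKP array 3 and SKP-derived array 2. The lower chains were Col1a2, Col27a1, Col11a1, Col11a2, Col4a3, Col4a4, Col6a4, Col9a1, Col10a1, Col13a1 and Col17a1. Apart from Col1a2 and Col27a1, they averaged 5.87 to 7.16 in SKP-derived and 6.65 to 7.62 in nerve Schwann cells. These levels lie near the array medians of 6.33 to 6.44 and 6.82 to 6.87. With genes below the median level left out, the share of genes that were lower fell from 42.3% to 13.4%. For 20 of the 25 chains, all SKP-derived arrays lay below all nerve arrays, against 59.1% of all genes. None of the 25 passed under all 4 scalings in either direction, a rule met by 0.352% of genes downward and 0.476% upward.

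The largest called differences were Col27a1, at -1.01 (SE 0.25, adjusted p = 0.0123), and Col1a2, at -0.91 (SE 0.23, adjusted p = 0.013). After cyclic loess these were -0.70 (adjusted p = 0.16) and -0.92 (adjusted p = 0.0988). Col3a1 differed by -1.22 (95% interval -3.00 to 0.56), Col7a1 by -1.002 (-2.09 to 0.09) and Col5a2 by -0.85 (-1.59 to -0.12, adjusted p = 0.0589). Without SKP array 3, which enters this comparison only through the shared estimate of spread, the count of lower chains was 18, where 48.1% of all genes were lower, and Col3a1, Col7a1, Col5a2 and Col1a1 were among them. In that fit Col12a1 was higher in SKP-derived Schwann cells by 0.90 (adjusted p = 0.0133). The difference of Col4a1 was -0.28 (95% interval -1.002 to 0.44).

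**Figure D3:**
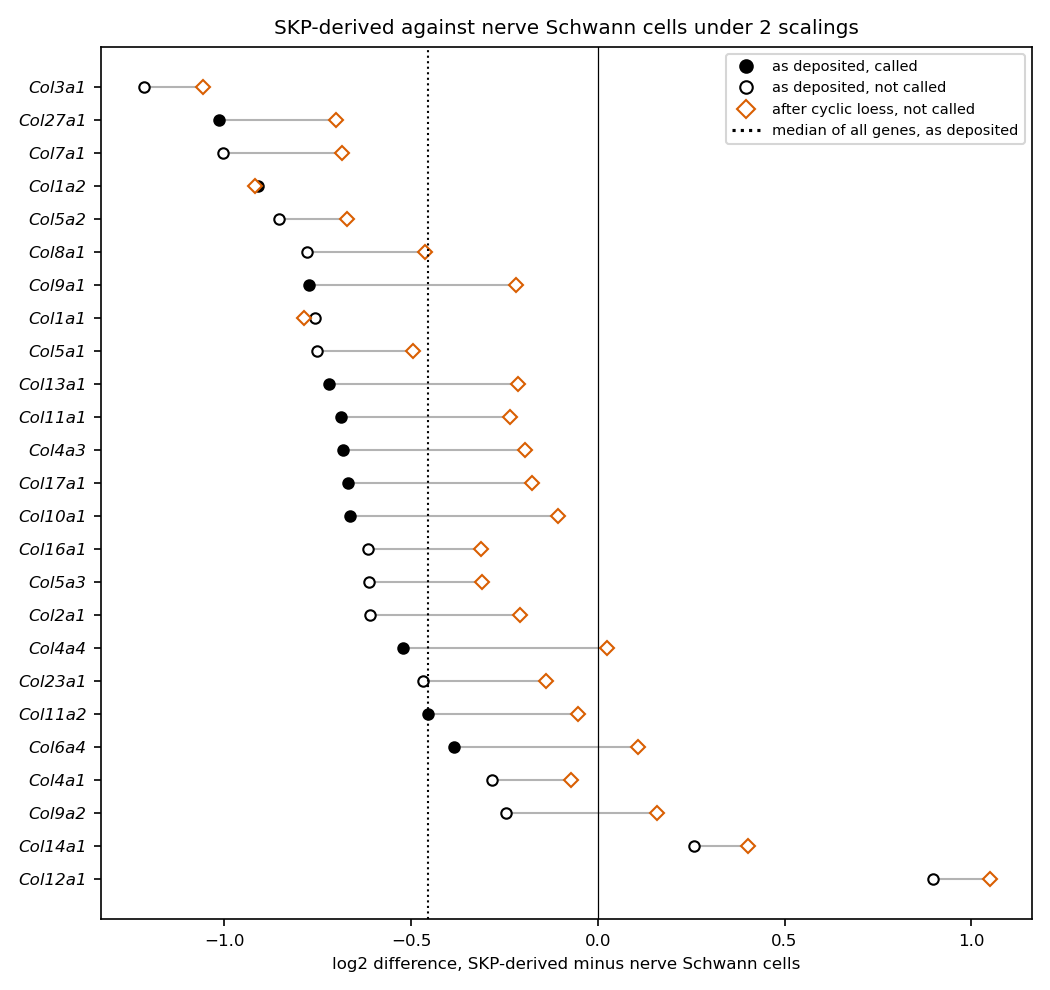
Log2 difference of SKP-derived minus nerve Schwann cells for the 25 chains, as deposited (black circles, filled where the adjusted p was under 0.05) and after cyclic loess between arrays (orange diamonds); the dotted line is the median of all genes as deposited, -0.45. Most diamonds lie closer to 0 than their circles, while those of Col1a2 and Col1a1 stay near -0.9 and -0.8, and no diamond is filled.

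By mean level as deposited, SKP-derived Schwann cells were the lowest of the 3 groups for 18 of the 25 chains, nerve Schwann cells for 1 (Col12a1) and SKPs for 6. Nerve Schwann cells were the highest for 13, SKPs for 11 and SKP-derived Schwann cells for 1 (Col14a1). These orders hold for the deposited values, in which the nerve arrays were higher across most genes. The same orders were not counted over all genes, so they cannot show anything particular to collagens.

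Within the SKPs, the arrays differed more in collagen than in most genes. The median SD of a chain was 0.268 in SKP-derived Schwann cells, 0.106 in nerve Schwann cells and 0.490 in SKPs, against 0.231, 0.110 and 0.226 over all genes in the same order of groups. SKP array 3 was the lowest SKP array for 21 of the 25 chains, where it was the lowest for 35.5% of all genes. Set against the mean of SKP arrays 1 and 2, its chains lay at a median of -0.833, against 0.0118 over all genes. A shift of more than 1 downward was seen for 9 chains (36.0%), against 4.73% of all genes, led by Col3a1 at -3.58, Col8a1 at -2.60, Col12a1 at -2.26 and Col7a1 at -2.11. Fibroblast markers were lower in the same array, as given above. The limit of 1 was chosen after these values were seen, and the part of the markers in the collagen values was not tested.

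SKP-derived array 2 showed another combination. It had the highest fibroblast marker mean of its group. Its Schwann cell marker mean was the lowest, at 10.18 against 11.08 and 10.63 in arrays 1 and 3. It was the lowest array of its group for 13 of the 25 chains, against 36.4% of all genes, and the highest for 6. The part of these markers in the collagen values was not tested. Against the mean of arrays 1 and 3, Col4a1 lay at -0.98, Col5a3 at -0.96, Col5a2 at -0.89, Col16a1 at -0.86, Col14a1 at -0.84 and Col1a1 at -0.62. A shift of more than 0.5 downward, a limit also chosen after seeing the values, was seen for 8 chains (32.0%), against 13.7% of all genes. Among the chains that lay higher in this array, Col3a1 was at 0.32, Col23a1 at 0.27 and Col12a1 at 0.19. Col8a1 went furthest that way, at 1.41 in this array and 1.64 in nerve array 2 against the other arrays of its group. Both of these arrays had the highest fibroblast marker mean of their group. Without both SKP array 3 and SKP-derived array 2, the 10 chains Col1a1, Col1a2, Col3a1, Col5a2, Col4a1, Col7a1, Col8a1, Col16a1, Col13a1 and Col23a1 kept their lower call in SKP-derived Schwann cells, and Col9a2 lost it (-0.38, adjusted p = 0.131). Col12a1, Col5a1 and Col4a3 gained one (-1.39, -0.84 and -0.50, adjusted p = 0.00565, 0.00274 and 0.0141).

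**Figure D4:**
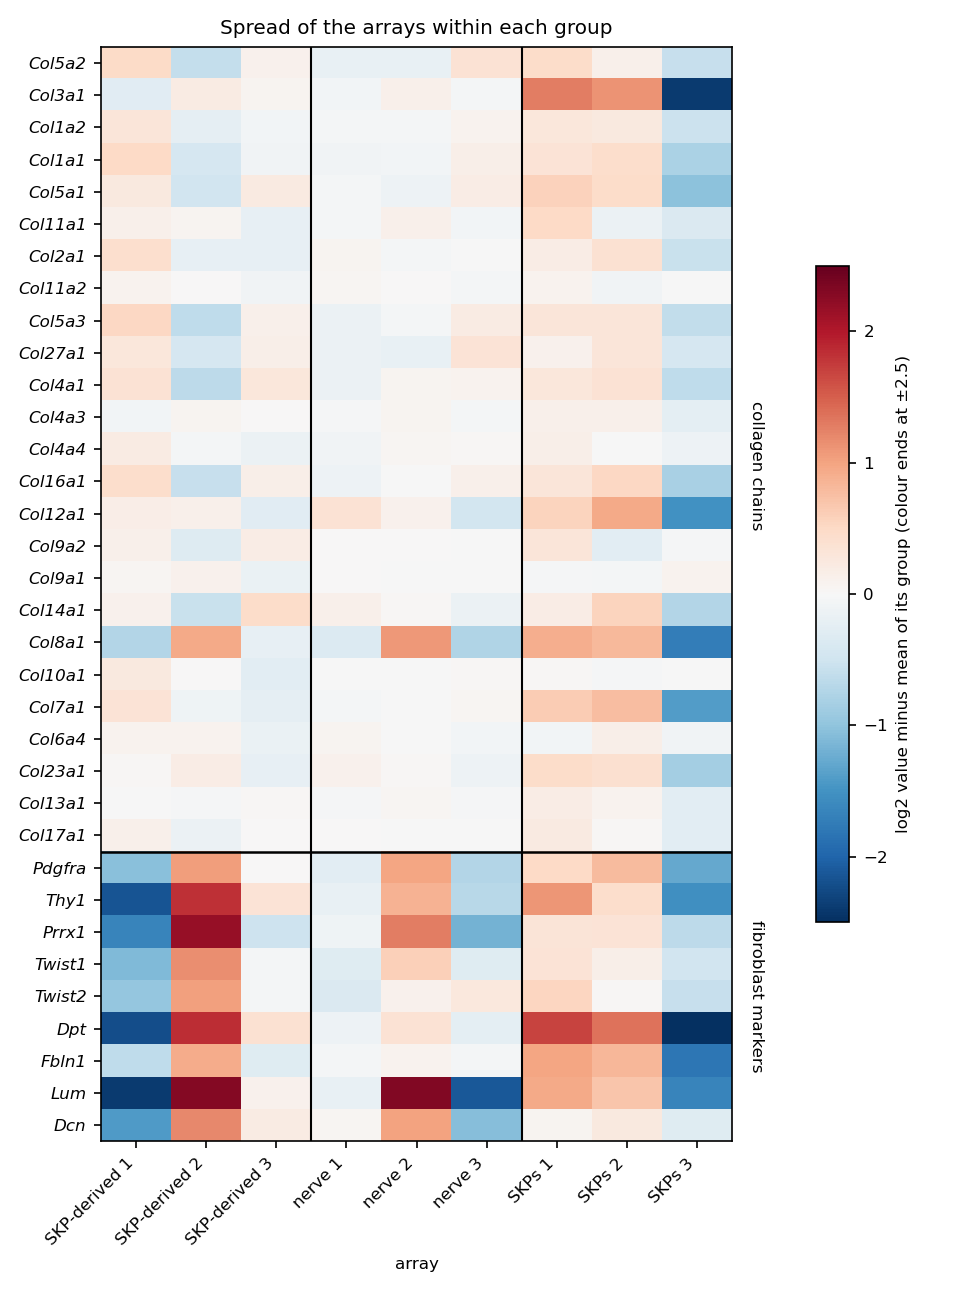
Log2 value of each array minus the mean of its group, for the 25 collagen chains (upper block) and 9 fibroblast markers (lower block), in SKP-derived Schwann cells, nerve Schwann cells and SKPs; red is above and blue below the group mean. SKP array 3 is blue in both blocks, while SKP-derived array 2 is red for the markers and mostly pale or blue for the chains other than Col8a1.

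The genes that modify and fold collagen in the endoplasmic reticulum were mostly lower in both kinds of Schwann cell. Of 19 measured, 14 were lower and 1 higher in SKP-derived Schwann cells than in SKPs, and 12 were lower and 1 higher in nerve Schwann cells, all of them under all 4 scalings. Over all genes 22.3% were lower and 19.3% higher in SKP-derived, and 14.9% lower and 49.7% higher in nerve Schwann cells. The list median was -0.82 and -0.73, against -0.01 and 0.46 over all genes. P4ha2, a subunit of the prolyl 4-hydroxylase that stabilises the helix, averaged 6.92 ± 0.16 in SKP-derived and 7.94 ± 0.28 in nerve Schwann cells, against 9.99 ± 0.38 in SKPs (SD, n = 3), differences of -3.07 (adjusted p = 9.61e-06) and -2.05 (adjusted p = 6.71e-05). Fkbp14, a prolyl isomerase, differed by -2.48 and -2.06.

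Of the 3 measured lysyl hydroxylases, which prepare crosslinking, all were lower in SKP-derived Schwann cells. In nerve Schwann cells Plod1 and Plod2 were lower and Plod3 did not pass (-0.53, adjusted p = 0.0545). Plod1 differed from SKPs by -2.04 in SKP-derived and -1.04 in nerve Schwann cells, and Plod2 by -1.16 and -2.09. Creb3l1, a transcription factor that turns on collagen secretion, fell by 1.85 and 1.41 in the 2 comparisons. The exception was P3h2, a prolyl 3-hydroxylase of type IV collagen, which averaged 8.36 ± 0.57 in SKP-derived and 9.55 ± 0.42 in nerve Schwann cells, against 6.65 ± 0.42 in SKPs (SD, n = 3), differences of 1.71 (adjusted p = 0.00261) and 2.90 (adjusted p = 9.86e-05). SKP-derived minus nerve Schwann cells gave 5 lower and 1 higher of the 19 as deposited, against 42.3% and 1.33% of all genes. The list median was -0.14, against -0.45 over all genes. The largest called differences were P3h2 (-1.19), P4ha2 (-1.03), Plod1 (-0.99) and Plod2 (0.93). Under all 4 scalings the count was 0 in either direction.

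Of 12 genes for processing and crosslinking outside the cell, 5 were lower and 2 higher in SKP-derived Schwann cells. Over all genes, 22.3% were lower and 19.3% higher there. In nerve Schwann cells 2 were lower and 3 higher, against 14.9% and 49.7% of all genes. Of these nerve calls, 1 higher and 2 lower held under all 4 scalings, as did 15.3% of all genes upward and 14.9% downward. Pcolce, which speeds removal of the C-terminal propeptide, averaged 9.05 ± 0.28 in SKP-derived and 8.73 ± 0.36 in nerve Schwann cells, against 12.00 ± 0.43 in SKPs (SD, n = 3), differences of -2.94 and -3.27. The aminopropeptidase genes diverged. Adamts3 was higher in both kinds of Schwann cell, by 2.99 and 3.31, with means of 7.68 and 8.004 against 4.69 in SKPs. Adamts2, its relative that trims type I procollagen in skin, was lower in SKP-derived Schwann cells (-1.40, adjusted p = 0.00135), while the nerve difference of 0.35 did not pass.

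Adamts2 was also the single gene of the collagen pathway lists called between SKP-derived and nerve Schwann cells under all 4 scalings, at -1.76 as deposited (adjusted p = 0.00208) and -1.52 after cyclic loess (adjusted p = 0.0264). Loxl3, a lysyl oxidase relative that crosslinks fibrils, fell by 1.88 and 1.64 in SKP-derived and nerve Schwann cells. Loxl1 was lower in SKP-derived Schwann cells than in SKPs (-1.16) and, as deposited, than in nerve Schwann cells (-0.996), where Adamts14 was lower too (-0.71). Pxdn, which crosslinks type IV collagen, differed by 0.87 in SKP-derived and 0.99 in nerve Schwann cells; its nerve value and that of Adamts14 (0.66) were 0.40 and -0.04 after cyclic loess and no longer passed.

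**Figure D5:**
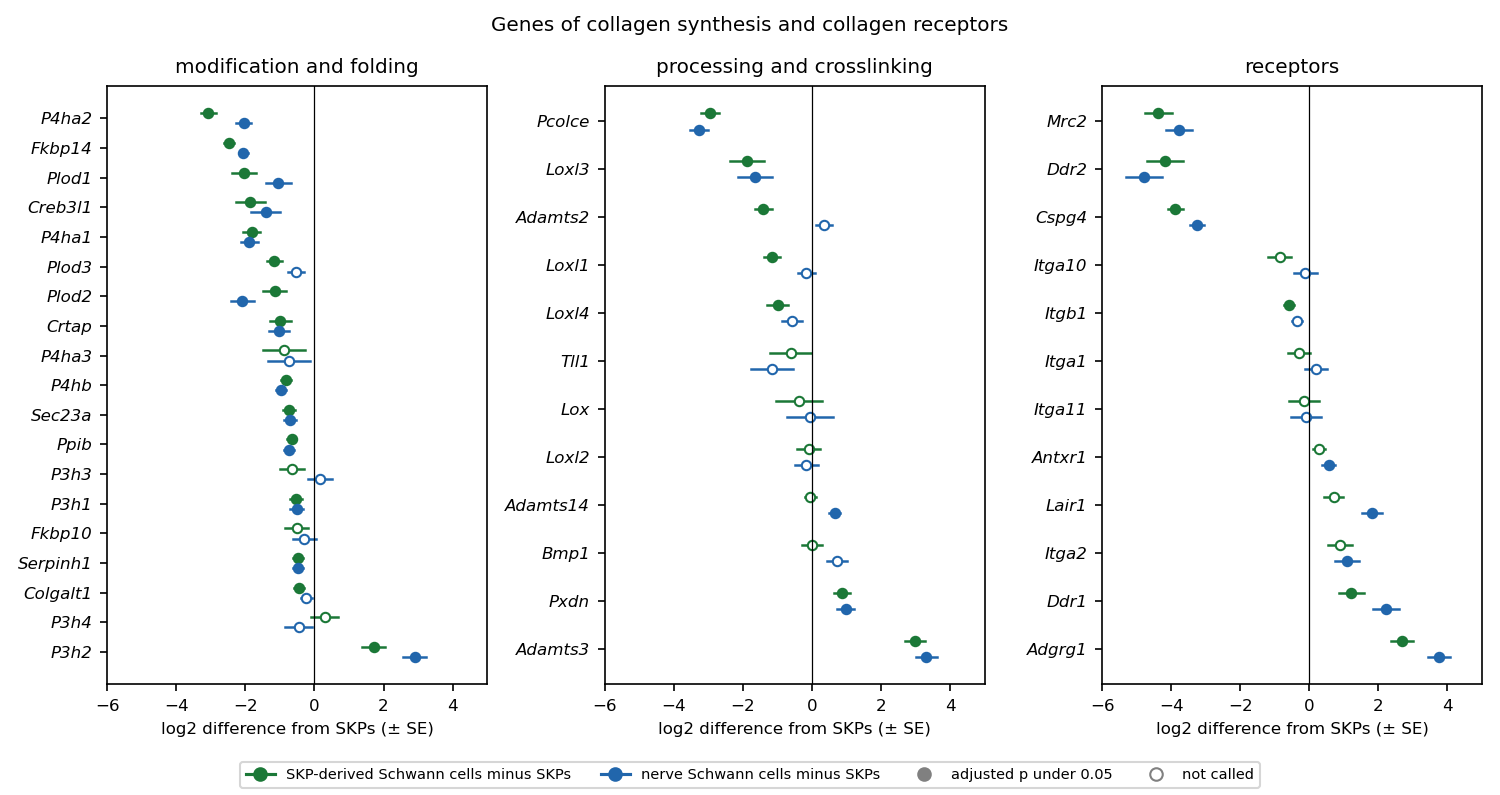
Log2 differences from SKPs (± SE) of genes for collagen modification and folding, for processing and crosslinking, and of collagen receptors, for SKP-derived (green, upper) and nerve (blue, lower) Schwann cells; filled points passed an adjusted p of 0.05. Most genes in the left panel lie below 0, with P3h2 alone far above it, and the right panel splits between Mrc2, Ddr2 and Cspg4 on the left and Ddr1 and Adgrg1 on the right.

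Of 12 measured collagen receptors, 4 were lower and 2 higher in SKP-derived Schwann cells, against 22.3% and 19.3% of all genes. In nerve Schwann cells 3 were lower and 5 higher, against 14.9% and 49.7% of all genes. Under all 4 scalings, 4 lower and 1 higher (Adgrg1) kept the call in SKP-derived, and 3 lower and 3 higher (Ddr1, Lair1 and Adgrg1) in nerve Schwann cells. Ddr2, the discoidin receptor of fibrillar collagen, averaged 7.75 ± 0.79 in SKP-derived and 7.13 ± 1.10 in nerve Schwann cells, against 11.93 ± 0.14 in SKPs (SD, n = 3), differences of -4.18 and -4.80. Mrc2, the receptor that takes up collagen for breakdown, differed by -4.37 and -3.78, and Cspg4, a proteoglycan that binds type VI collagen and also marks pericytes, by -3.88 and -3.26.

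Adgrg1, which binds type III collagen, and Ddr1, the discoidin receptor that also binds type IV collagen and is named here after its values were seen, were higher as deposited: Adgrg1 by 2.68 and 3.76 and Ddr1 by 1.22 and 2.22 in SKP-derived and nerve Schwann cells. For Ddr1 the SKP-derived and SKP arrays overlapped. Lair1, an inhibitory collagen receptor of leukocytes, was higher in nerve Schwann cells by 1.81. Between SKP-derived and nerve Schwann cells, Lair1 (-1.11), Adgrg1 (-1.09) and Cspg4 (-0.62) were lower as deposited, where 42.3% of all genes were lower. None of the 12 receptors passed under all 4 scalings.

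Macrophage markers, of which 3 of 7 were lower in SKP-derived and 1 of 7 in nerve Schwann cells than in SKPs, averaged 4.98 to 5.29 in SKP-derived and 5.83 to 5.94 in nerve Schwann cells, against 8.37, 6.50 and 5.62 in SKP arrays 1, 2 and 3. The pericyte and smooth muscle list gave 1 higher and 2 lower of 7 in SKP-derived and 5 higher and 1 lower in nerve Schwann cells. Of the 5 endothelial markers, 1 was higher in SKP-derived and 5 in nerve Schwann cells. The perineurial list gave 1 higher and 1 lower of 4 in SKP-derived and 2 higher and 1 lower in nerve Schwann cells. Over all genes, 19.3% were higher and 22.3% lower in SKP-derived, and 49.7% higher and 14.9% lower in nerve Schwann cells. Under all 4 scalings the nerve counts were 1 and 1 of 7 for pericytes, 2 higher of 5 for endothelium and 1 and 1 of 4 for perineurium. That rule was met by 15.3% of all genes upward and 14.9% downward. The part of these markers in the collagen values was not tested.

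Most small proteoglycans of the fibril surface did not pass. Against SKPs, 22.3% of all genes were lower and 19.3% higher in SKP-derived, and 14.9% and 49.7% in nerve Schwann cells. Dcn and Lum of this list are also among the 9 fibroblast markers. Of 8 measured, Kera was lower in SKP-derived (-0.76, adjusted p = 0.0349, arrays overlapping) and in nerve Schwann cells (-0.65, adjusted p = 0.0427), and 6 passed in no comparison. The largest of the differences that did not pass were those of Bgn, at -2.27 and -2.04 (adjusted p = 0.0705 and 0.0719; SD 1.70 in SKP-derived, 1.66 in nerve Schwann cells and 0.189 in SKPs), Ogn, at 2.17 and 1.18, Aspn, at -0.14 and -2.29, and Lum, at -0.75 and -2.08. Fmod was higher in nerve Schwann cells than in SKPs (0.57) and lower in SKP-derived than in nerve Schwann cells (-0.54), and both turned sign after cyclic loess.

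The partners of type IV collagen in basement membranes were mixed. Of 10 measured, 2 were higher and 3 lower in SKP-derived Schwann cells, against 19.3% and 22.3% of all genes. In nerve Schwann cells 5 were higher and 3 lower, against 49.7% and 14.9% of all genes. Under all 4 scalings the higher ones were Nid2 in SKP-derived and Nid2 and Agrn in nerve Schwann cells, and the 3 lower ones stayed in both. Nid2, a nidogen that links laminin to type IV collagen, averaged 10.75 ± 0.59 in SKP-derived and 10.65 ± 0.10 in nerve Schwann cells, against 9.11 ± 0.58 in SKPs (SD, n = 3), differences of 1.63 (adjusted p = 0.00355) and 1.54 (adjusted p = 0.0028). Of the laminin chains, Lamb2 differed by -1.94 and -1.35, Lamc3 by -1.80 and -1.21 and Lama3 by -1.46 and -0.89, all called. Agrn, a basement membrane proteoglycan, was higher in nerve Schwann cells by 1.30 (adjusted p = 0.00068). Between SKP-derived and nerve Schwann cells, Lamb3 (-0.92), Agrn (-0.76), Lama3 (-0.56) and Lama1 (-0.47) were lower as deposited, where 42.3% of all genes were lower. None of the 10 passed under all 4 scalings.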

How the data were processed

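The authors deposited log2 expression values of 29214 features in 9 arrays, which per the submitters' processing notes come from RMA (background correction, normalisation between arrays, probe summary) as run by Affymetrix Expression Console. Not given in the sources used here are versions, build and whether all 9 arrays went into 1 normalisation. No chain was called absent, since detection calls were not used, and precision is limited by the number of arrays.

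Names come from the platform annotation: 15310 have 1 symbol, 323 several and 13581 none, and the last 2 kinds were left out. One feature per gene (highest mean) left 14506 genes. Group means were fitted with limma 3.58.1 (lmFit, eBayes) in R 4.3.3 over all 9 arrays, with Benjamini-Hochberg adjustment over all genes in each of 3 comparisons; calls needed an adjusted p under 0.05. The steps were tested on simulated data with independent noise and no shifted or deviating array. That test cannot show how such arrays affect the calls. Errors are SE from limma or SD over 3 arrays. The p-values set a difference against 1 estimate of spread per gene, shared by the 3 groups. They do not cover the batch of the SKPs.

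The chains, gene lists and tests were chosen with earlier results of these data known. Every chain is accounted for; of each pathway list, up to 4 called members per comparison with the largest difference are named. Alternatives were other scalings between arrays, another choice of feature, a filter on dim genes and 2-group fits. Further ones were other variances and thresholds, a replicate block, and leaving out arrays. The rule of all 4 scalings was added after seeing the data. So were the fits without both SKP array 3 and SKP-derived array 2, and after cyclic loess without SKP array 3. Replicate numbers of the labels were not used as pairs in the main fit. Of 9 same-numbered pairs, 3 had correlated deviations over 0.1 (range -0.12 to 0.29). Pairs with different numbers were not compared, so these values cannot show whether the samples were paired. Promoter windows came from RefSeq (GRCr8).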

Additional observations from a re-analysis of the deposited data

Results flagged for a closer look

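SKP-derived and nerve Schwann cells share the SKP arrays as their baseline, so a called difference between them means that their differences from SKPs differ. By limma's test of that difference, with values as deposited, this held for 11 of 25 chains, each lower in SKP-derived Schwann cells, where 42.3% of all genes were lower. The difference was -1.01 for Col27a1, -0.91 for Col1a2, -0.77 for Col9a1, -0.72 for Col13a1, -0.69 for Col11a1, -0.68 for Col4a3, -0.67 for Col17a1, -0.66 for Col10a1, -0.52 for Col4a4, -0.45 for Col11a2 and -0.39 for Col6a4 on the log2 scale. The median over all genes was -0.45. After median centring, cyclic loess or quantile normalisation, none of the 11 passed an adjusted p of 0.05.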

How the results depend on the processing

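Against SKPs, the 11 lower chains in SKP-derived Schwann cells became 10 to 13 and the 2 higher ones 2 to 3 when 1 array was left out, and the 2 became 1 with each gene's features averaged, at an adjusted p of 0.01 or with a minimum of 1 on the log2 scale. In nerve Schwann cells the 8 higher chains became 2 after median centring, after quantile normalisation, with the minimum of 1, after cyclic loess without SKP array 3, or under all 4 scalings, 3 after cyclic loess and 5 without dim genes (6 to 9 with 1 array left out). The 8 lower ones became 13 after median centring, where 31.6% of all genes were lower. They became 14 after cyclic loess without SKP array 3, where 26.7% of all genes were lower (6 to 10 with 1 array left out). Over all genes, nerve minus SKPs gave 49.7% higher and 14.9% lower as deposited, against 22.4% and 25.6% after cyclic loess, and SKP-derived minus nerve gave 1.33% and 42.3%, against 0.731% and 0.600%.

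For SKP-derived minus nerve Schwann cells, the 11 lower chains became 0 after median centring, cyclic loess or quantile normalisation and under all 4 scalings, 1 with the minimum of 1, 2 after cyclic loess without SKP array 3, 5 without dim genes or at an adjusted p of 0.01, and 18 in the fit of the 6 arrays, where 49% of all genes were lower (7, without nerve array 2, to 18, without SKP array 3, with 1 array left out). The 0 higher became 1 in the fit of the 6 arrays, 0 to 1 with 1 array left out and 2 without both SKP array 3 and SKP-derived array 2. The cause was not tested. The replicate block changed no call of a chain, with 11 lower and 2 higher, 8 and 8, and 11 and 0 in the 3 comparisons.

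Of differences called as deposited or in the other setting, direction turned in nerve minus SKPs for Col13a1 (-0.58 median-centred, -0.57 loess, -0.55 quantile, -0.69 loess without SKP array 3), Col17a1 (-0.17, -0.13, -0.12 and -0.23 in the same settings), Col11a2 (-0.32 median-centred), and, after loess without SKP array 3, Col4a3 (-0.33) and Col5a1 (-0.64). In SKP-derived minus nerve this was so for Col6a4 (0.086, 0.107, 0.064 and 0.104 in those 4 settings), Col4a4 (0.024 after loess and 0.022 after loess without SKP array 3) and Col11a2 (0.017 median-centred). Under at least 1 of median centring, cyclic loess and quantile normalisation, the sign of differences called in neither setting turned for Col2a1, Col4a3, Col5a1, Col11a1 and Col11a2 (nerve minus SKPs) and for Col4a1, Col9a2 and Col23a1 (SKP-derived minus nerve).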
